A study of Homo sapiens with 4 samples.

Results

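The 39 human HOX genes were examined in nucleosome maps of BE(2)C neuroblastoma cells. Members were the protein-coding genes whose symbol is HOX followed by a cluster letter from A to D and a number, which gave 39 of 20163 protein-coding genes of the annotation. HOXA held 11 of them, HOXB 10, HOXC 9 and HOXD 9. BE(2)C is a human neuroblastoma line with amplified MYCN. Its cells were given a non-targeting control siRNA (2 libraries) or an siRNA against MYCN (2 libraries), by lipid transfection, and were otherwise of unmodified genotype. Both groups carry the MYCN amplification. The labels give 80 nM siRNA and collection on the following day, and the study's methods a lower concentration. All 4 libraries came from 1 line in transient knockdown, and although the study calls its replicates biological, how they were kept apart is not given, so that p-values measure the spread between these libraries, which may be technical.

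HOX genes encode homeodomain transcription factors that set position along the body axis. They lie in 4 clusters on different chromosomes, in an order that matches where each gene is used in the embryo, and genes of the same number in different clusters (a paralog group) descend from 1 ancestral gene. Low numbers act toward the head and high numbers toward the tail. Where the clusters are silent they are classic targets of Polycomb proteins, which keep chromatin repressed, and Trithorax proteins counteract this. HOX proteins bind DNA together with cofactors of the TALE class, such as PBX and MEIS. MYCN, paired with MAX, binds a palindromic motif called the E-box, CACGTG. Nucleosomes were mapped by MNase-seq, in which micrococcal nuclease digests the DNA between nucleosomes and the protected fragments are sequenced. A read here is the midpoint of a read pair that falls in a called nucleosome, and the dyad is the called centre of that nucleosome. Reads average over all cells and all DNA copies, so that a nucleosome present in fewer cells and a locus with fewer copies cannot be told apart in the counts alone.

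The E-box was frequent at the start sites of these genes. In the window that begins 200 bp before the transcription start site (TSS) and ends 50 bp after it, the place of the canonical nucleosome-free region (NFR), CACGTG was found in 20 of 39 HOX genes (51.3%), against 1580 of 20163 protein-coding genes (7.84%). The motif reads the same on both strands. Among genes whose promoters lay in the GC range and the CpG range of the HOX promoters, 1064 of 11454 (9.29%) held it. Over the whole promoter, which begins 2000 bp before the TSS and ends 1000 bp after it, the shares were 61.5% for HOX and 36.8% for all protein-coding genes. Genes with the motif in the window at the TSS included HOXA4, HOXA5, HOXA7, HOXA9, HOXB3, HOXB4, HOXB5, HOXB7, HOXC5, HOXC9, HOXC11, HOXC12, HOXC13, HOXD1, HOXD3, HOXD9, HOXD10, HOXD11 and HOXD13. HOXB7 and HOXC13 each held 2, so that there were 22 E-boxes. All 22 began upstream of the TSS, with the first base at a median of −80 bp, and 18 began within 110 bp of it. The motifs of HOXA7 and HOXC11 held the TSS base itself, and the other 20 ended upstream of it. A motif match is a description of sequence. Binding of MYCN was not measured in these files.

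Some of these motifs sat in the same surroundings in paralogs. The lines below give the motif with 10 bases on each side, 5′ to 3′ on the strand of the gene, on GRCh37 (hg19), with CACGTG in capitals. They are shown because they include paralogs most alike beside the motif (HOXA5 with HOXB5, HOXC9 with HOXD9), together with motifs that were covered by a nucleosome in every library (HOXA7, HOXC11) or in none (HOXD1, HOXD10).
HOXA5 (chr7:27183370-27183395, minus strand): acaacaaaagCACGTGattcgaagtc
HOXB5 (chr17:46671203-46671228, minus strand): tcaacaaaagCACGTGattccctaac
HOXA7 (chr7:27196284-27196309, minus strand): tgtgggcggtCACGTGctgcggcgag
HOXC9 (chr12:54393826-54393851, plus strand): taaatacgatCACGTGggggccgggg
HOXD9 (chr2:176987392-176987417, plus strand): taaatatgatCACGTGggccgcgcga
HOXC11 (chr12:54366897-54366922, plus strand): tactttggatCACGTGctcagagaga
HOXD1 (chr2:177053333-177053358, plus strand): cggccagcgcCACGTGgccgcccccg
HOXD10 (chr2:176981390-176981415, plus strand): ggctctggagCACGTGacccgagagg
Of the 20 bases beside the motif, 14 were identical between HOXA5 and HOXB5, 14 between HOXA7 and 1 of the HOXB7 motifs, and 14 between HOXC9 and HOXD9. The median was 7 over the 14 pairs of motifs from the same paralog group and 6 over the other 217 pairs. The resemblance was therefore strong in a few paralogs and not a feature of all of them.

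The motifs were often under nucleosomes. All 6 bases lay inside a called nucleosome for 10 of 22 HOX E-boxes in control replicate 1, for 10 in control replicate 2, for 15 in knockdown replicate 1 and for 11 in knockdown replicate 2. These are shares of 45.5%, 45.5%, 68.2% and 50%. Among all 1777 E-boxes in the windows of protein-coding genes the shares were 30.3%, 35.3%, 28.9% and 36.1%. Those of HOXA5, HOXA7, HOXC11 and HOXC12 and both of HOXB7 were covered in 4 of 4 libraries. Those of HOXC9, HOXD1, HOXD9 and HOXD10 were covered in none. The shares over all HOX E-boxes were above those of all protein-coding genes in every library. This did not hold for each cluster alike. Of the 6 E-boxes of HOXD, 0 were covered in all libraries and 3 in none. In HOXA (5 E-boxes), HOXB (5) and HOXC (6), 2 each were covered in all, and 0, 0 and 1 in none. Coverage counts called nucleosomes and so depends on read depth, whose part was not tested. Both knockdown libraries had more covered HOX E-boxes than both control libraries, and the 2 knockdown libraries differed from each other by 4. This difference was not tested.

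The libraries set the precision of what follows. The replicate 1 libraries held 147726171 (control) and 147370973 (knockdown) reads in called nucleosomes, and the replicate 2 libraries 242544884 and 239257113. The median read count per nucleosome was 12 in each replicate 1 library and 18 in each replicate 2 library, and nucleosomes under 6 reads are not in the lists. The 10-kb bin at MYCN held 132.2 (control) and 132.0 (knockdown) times the reads of the median bin in the replicate 1 libraries. In the replicate 2 libraries it held 91.3 and 94.9 times, so all 4 libraries carried the amplification of the line.

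HOXA spans chr7:27132612-27239710 and HOXB chr17:46605888-46806112, both with members on the minus strand. HOXC spans chr12:54332615-54449814 and HOXD chr2:176957449-177055635, both with members on the plus strand. Their GC content was 51.8%, 49.3%, 52.6% and 51.0%, against 40.1%, 44.6%, 45.9% and 39.1% in the 500 kb on each side. Each cluster was compared with these flanks in the same library, so that depth and a copy level shared with the flanks enter both values. They need not cancel, because nucleosomes under 6 reads are not in the lists, which loses more reads where depth is low. The clusters were richer in GC than their flanks, and the part of GC content in this comparison was not tested.

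HOXA and HOXD stood above their flanks, HOXB slightly so, and HOXC slightly below. In HOXA, reads per kb relative to the flanks were 1.23 and 1.12 in the control libraries and 1.18 and 1.13 in the knockdown libraries. HOXB had 1.07 and 1.02 in the control and 1.07 and 1.06 in the knockdown. HOXC had 0.995 and 0.943 in the control and 0.980 and 0.946 in the knockdown. All 4 values of HOXC were thus below 1, and all 8 values of HOXA and HOXB above it. HOXD had 1.25 and 1.11 in the control and 1.10 and 1.12 in the knockdown. In HOXA, HOXB and HOXC both replicate 1 libraries, the shallower ones, were above both replicate 2 libraries, and in HOXD they were not. The part of depth in these ratios was not tested. The means over 4 libraries were 1.16 ± 0.051 (SD, n = 4) for HOXA, 1.06 ± 0.022 for HOXB, 0.966 ± 0.025 for HOXC and 1.15 ± 0.073 for HOXD. HOXA was above HOXB and HOXB above HOXC in 4 of 4 libraries, and HOXA and HOXD did not keep an order (HOXA higher in 3 of 4). The HOXB values take in 98.4 kb without HOX genes between HOXB9 and HOXB13, which stood at 1.01 to 1.04. The part from HOXB1 to HOXB9 stood at 1.03 to 1.11. With 4 libraries an exact sign-flip permutation test cannot go below p = 0.13, two-sided, and this value was reached by 5 of the 6 pairs (0.15 after Benjamini-Hochberg adjustment over 6 pairs) and not by HOXA against HOXD (p = 0.63).

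**Figure D1:**
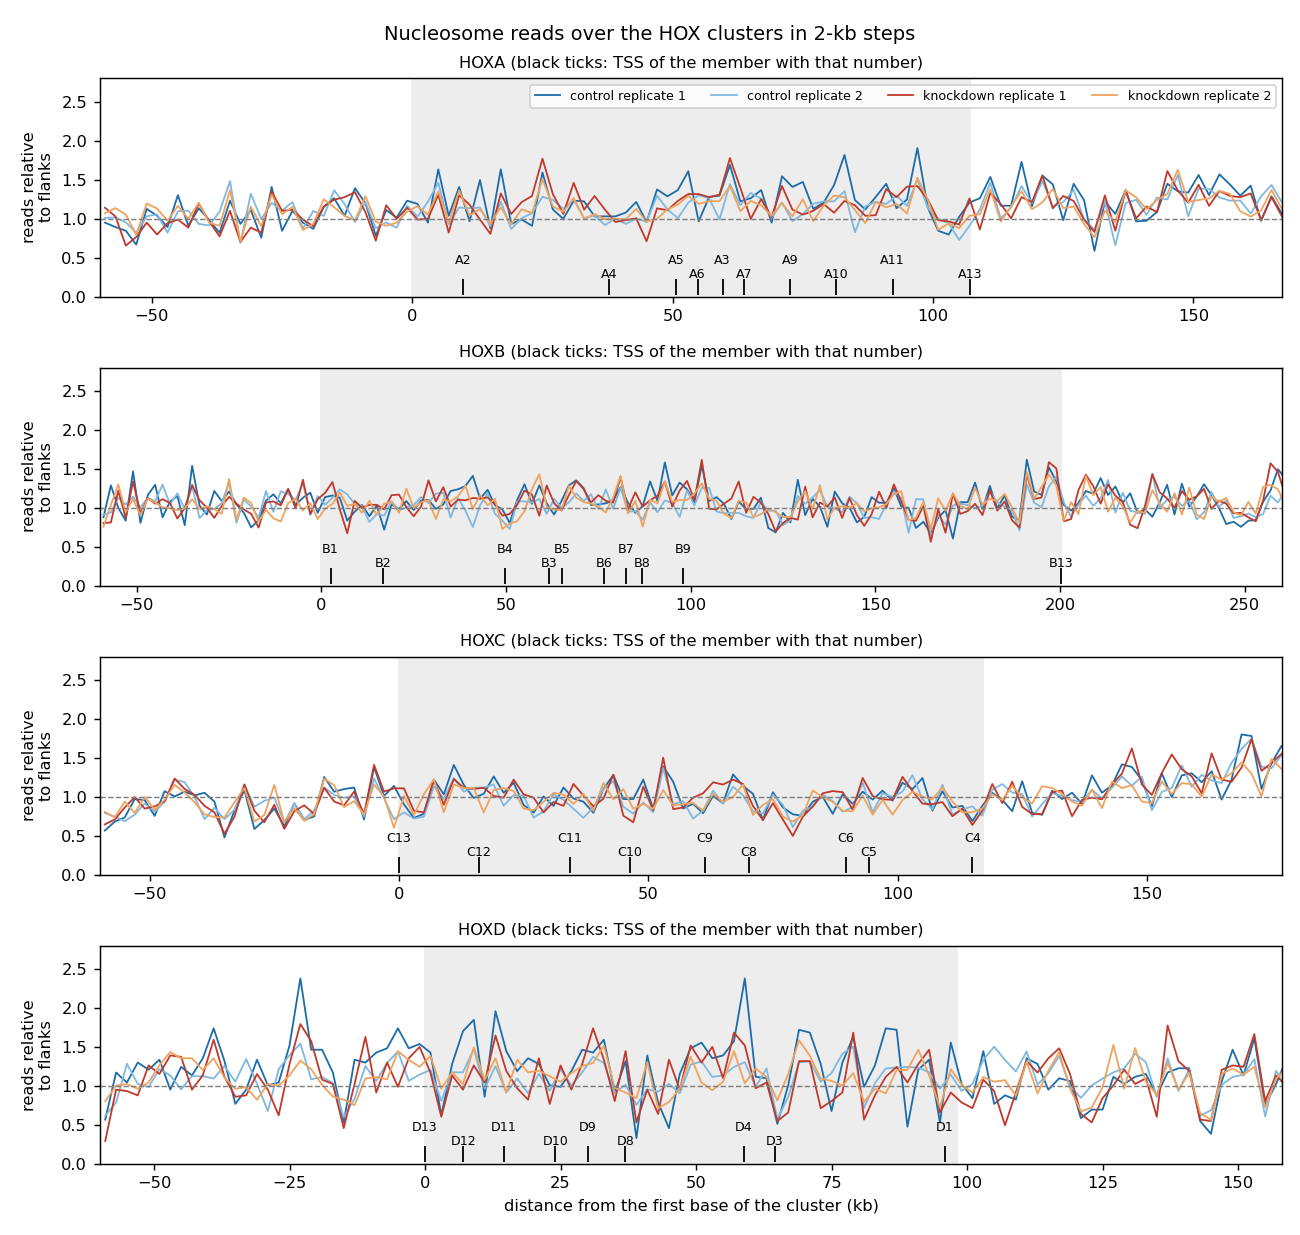
Reads in called nucleosomes in 2-kb steps along each HOX cluster and 60 kb on either side, divided by the reads per kb of the 500-kb flanks of the same library (y axis), against the distance from the first base of the cluster in kb (x axis). Lines are the 4 libraries, the grey area is the cluster and black ticks are TSSs of its members. The HOXA lines lie mostly above 1, where the mean over the cluster was 1.16, and the HOXC lines on either side of 1, where it was 0.966.

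HOXD differed from the other clusters in its absolute level. It held 34.3 and 55.7 reads per kb in the control libraries and 30.0 and 55.9 in the knockdown libraries. HOXA held 76.5, 114.3, 73.7 and 114.0 in the same order. Relative to the mean of the whole library, HOXD stood at 0.642 ± 0.041 (SD, n = 4), and HOXA, HOXB and HOXC at 1.40 ± 0.062, 1.42 ± 0.020 and 1.34 ± 0.066. The flanks of HOXD were lower still, at 0.529 to 0.595 of the library mean, whereas those of HOXA, HOXB and HOXC were at 1.201 to 1.43. Among 28302 windows of 100 kb over the genome, HOXD ranked at percentiles 15.6 to 20.8 by reads and the other clusters at percentiles 81.2 to 93.7. Among the 1548 windows within 2 percentage points of its GC content, HOXD ranked at percentiles 0.323 to 1.23. The other clusters ranked at percentiles 31.9 to 65.6 of windows like them in GC, with HOXA at 35.7 to 49.8. The low level of HOXD thus extended to its surroundings. DNA copy number was not measured here, and fewer copies and lower occupancy cannot be told apart.

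Called nucleosomes per kb, which depend on the minimum of 6 reads, were also lowest in HOXD. HOXD had 3.41 and 4.06 nucleosomes per kb in the control libraries and 3.198 and 4.22 in the knockdown libraries. The other 3 clusters had 4.33 to 4.54 in all libraries. Spacing, the mean distance from one dyad to the next, was 211.2 ± 1.0 bp (SD, n = 4) in HOXD and 206.7 ± 1.78 bp in HOXA, 205.3 ± 0.51 bp in HOXB and 206.9 ± 0.35 bp in HOXC, and HOXD was longest in 4 of 4 libraries. The flanks of HOXD shared both properties. They held 2.89 to 3.96 nucleosomes per kb, fewer than HOXD in each library, with a spacing of 208.9 to 212.8 bp. Spacing in HOXD was above that of its flanks in 2 of 4 libraries, by 0.84 ± 2.07 bp on average (SD, n = 4). Fuzziness, the SD of read midpoints around the dyad, averaged 33.7 ± 0.57 bp in HOXD and 35.1 to 35.4 bp in the others. Fuzziness was below the flanks in 4 of 4 libraries in HOXB, HOXC and HOXD, by 0.24, 0.59 and 0.61 bp on average, and in 3 of 4 in HOXA, by 0.31 bp. Spacing, fuzziness and read depth moved together across the clusters, and the part of depth in the other 2 was not tested.

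Nucleosomes of the clusters kept their places between libraries more often than those of the flanks. A dyad of control replicate 1 was counted as constant when each other library had a dyad within 20 bp. Of the 471 nucleosomes of HOXA, 106 (22.5%) were constant, against 14.9% in its flanks. The shares were 19.5% in HOXB (flanks 17.0%), 21.4% in HOXC (17.8%) and 11.9% in HOXD (6.07%), and 11.7% over the genome. Each cluster was above its own flanks, by a small margin in HOXB and HOXC, and HOXD was close to the genome. Reads per kb were also above the flanks in HOXA, HOXB and HOXD, and their part in these shares was not tested. The sharpest constant nucleosome of HOXB, by mean fuzziness, lay in an intron of HOXB3 at chr17:46662708-46662854. It held 27 and 44 reads in the control libraries and 27 and 38 in the knockdown libraries, and its dyads lay within 5 bp of one another. Its DNA was 68.7% GC. The sharpest of HOXA lay between genes, 4253 bp downstream of the HOXA9 TSS, with 30, 46, 16 and 49 reads and a mean fuzziness of 21.9 ± 3.76 bp (SD, n = 4).

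Few long stretches without nucleosomes were found in the clusters, and they lay away from the canonical TSSs of the members. There were 3 gaps of at least 300 bp that no called nucleosome of any library touched. This is 5.74 per Mb, against 12.7 per Mb over the genome. The number rests on few gaps and on depth. It was 7 without knockdown replicate 2 and 8 when the libraries were thinned to equal depth. HOXA and HOXD had none, against 0 and 34 per Mb in their flanks. HOXB and HOXC had 9.99 and 8.53 per Mb, above the 4 per Mb in the flanks of each. HOXB had 2, of 416 and 401 bp, both in the long stretch without HOX genes between HOXB9 and HOXB13, with a GC content of 20.7% and 25.9%. The HOXC gap was of the opposite composition. It was 302 bp long with 67.5% GC and 20 CpG dinucleotides, and lay inside longer transcripts of HOXC4 and HOXC6, 9089 bp downstream of the HOXC8 TSS. The annotated start of the HOXC4 gene, at chr12:54410715, lies upstream of its canonical TSS. The HOXC gap begins at chr12:54411708, downstream of that start and closer to it than to the HOXC8 TSS. None of the 3 overlapped the window at a canonical TSS. The middle 299 bases of the HOXC gap and of the first HOXB gap are given to show this contrast, on the plus strand of GRCh37.
HOXC gap (chr12:54411709-54412007, plus strand): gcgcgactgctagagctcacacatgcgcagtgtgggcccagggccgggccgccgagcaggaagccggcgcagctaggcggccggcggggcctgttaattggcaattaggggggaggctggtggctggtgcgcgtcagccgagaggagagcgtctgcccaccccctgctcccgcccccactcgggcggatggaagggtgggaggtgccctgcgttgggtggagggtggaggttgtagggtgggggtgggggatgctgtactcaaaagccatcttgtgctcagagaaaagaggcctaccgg
HOXB gap (chr17:46764197-46764495, plus strand): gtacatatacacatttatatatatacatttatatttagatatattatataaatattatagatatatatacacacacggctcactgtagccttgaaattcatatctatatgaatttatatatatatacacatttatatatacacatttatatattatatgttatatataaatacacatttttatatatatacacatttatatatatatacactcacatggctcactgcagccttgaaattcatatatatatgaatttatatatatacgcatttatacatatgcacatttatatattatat
Very AT-rich DNA is cut readily by MNase and can be hard to map, and very GC-rich DNA can be hard to amplify. Which of these applied was not tested.

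Promoter reads were given as RPKM, with all reads of the library in called nucleosomes as the total. The order of levels followed the clusters. The median over members of the 4-library mean was 0.501 in HOXA, 0.497 in HOXB, 0.455 in HOXC and 0.242 in HOXD, and 0.365 over all protein-coding promoters. The HOXA promoters ranged from 0.419 (HOXA4) to 0.618 (HOXA3). HOXA3, a gene of hindbrain and pharyngeal patterning whose canonical TSS lies upstream of HOXA6, had 0.663 and 0.525 in the control and 0.712 and 0.572 in the knockdown. HOXA4 had 0.422 and 0.394 in the control and 0.452 and 0.407 in the knockdown, so every library of HOXA3 was above every library of HOXA4.

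In HOXB, the highest promoter was that of HOXB9 and the lowest that of HOXB4, a gene known for its use in expanding blood stem cells. HOXB9 had 0.605 and 0.486 in the control and 0.599 and 0.497 in the knockdown. HOXB4 had 0.417 and 0.360 in the control and 0.414 and 0.376 in the knockdown, again without overlap. In HOXC, HOXC12 was highest, with 0.539 and 0.563 in the control and 0.543 and 0.461 in the knockdown. HOXC4 was lowest, with 0.354 and 0.408 in the control and 0.308 and 0.348 in the knockdown. Both ends of the HOXC order were thus separated in all 4 libraries.

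In HOXD, HOXD4 was highest, with 0.399 and 0.257 in the control and 0.303 and 0.260 in the knockdown. HOXD3 was lowest, with 0.147 and 0.190 in the control and 0.136 and 0.213 in the knockdown, below HOXD4 in each library. All 9 HOXD means, 0.171 to 0.305, were below the lowest mean of the other clusters (HOXC4, 0.354). Relative to the flanks of the cluster, however, HOXD4 had the highest mean of all 39 members, at 1.57 ± 0.433 (SD, n = 4), with 2.16 in control replicate 1 and 1.24 to 1.63 in the others. This rank rested on control replicate 1. Without it HOXA3 was highest, at 1.43 against 1.37 for HOXD4, and in each of the other 3 libraries another member was above HOXD4. Across the 39 promoters, Pearson's r of RPKM between pairs of libraries was 0.822 to 0.898. These points share the low level of HOXD, and relative to the flanks r was 0.569 to 0.755.

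**Figure D2:**
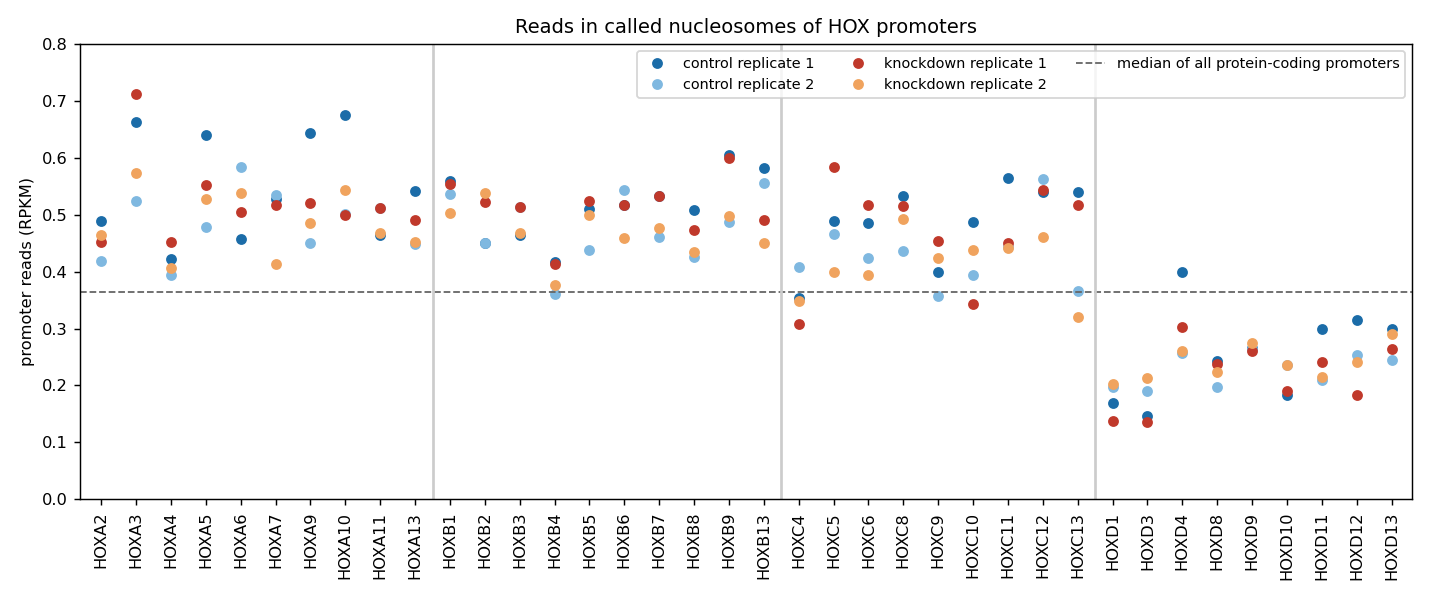
Reads in called nucleosomes of each HOX promoter, in RPKM (y axis), for 38 of the 39 members grouped by cluster (x axis). Points are the 4 libraries and the dashed line is the median of all protein-coding promoters, 0.365. Every HOXD mean lies below the line, at 0.171 to 0.305.

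The window at the TSS was then read as empty when no called nucleosome lay at least 80% inside it. It was empty in 19 and 19 of 39 HOX genes in the control libraries and in 19 and 16 in the knockdown libraries. These are shares of 48.7%, 48.7%, 48.7% and 41.0%, against 58.4%, 52.6%, 60.3% and 52.1% over all protein-coding promoters. The window was empty in all 4 libraries in 10 (25.6%, against 32.3% of 20079 protein-coding promoters) and filled in all 4 in 10 (25.6%, against 19.9%). The remaining 19 differed between libraries. The empty 10 were HOXC4, HOXC6, HOXC8, HOXC9 and HOXC10 in HOXC, HOXD1, HOXD8, HOXD9 and HOXD10 in HOXD, HOXB8 in HOXB and none in HOXA. The number depended on the rule. When a nucleosome at least 50% inside also counted as filling the window, or any dyad inside it, 5 stayed empty in all libraries, namely HOXB8, HOXC8, HOXC10, HOXD1 and HOXD10. The filled 10 were HOXA2, HOXA5, HOXA7, HOXA10, HOXB4, HOXB5, HOXB6, HOXB7, HOXC11 and HOXC12, with none in HOXD. Under the other rules 3 members of HOXD, HOXD11, HOXD12 and HOXD13, were also filled in all libraries.

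The 3 members of paralog group 8, HOXB8, HOXC8 and HOXD8, were empty in all 4 libraries under the 80% rule, the only paralog group with this property. Under the 50% rule and the dyad rule HOXD8 was no longer among the empty members. Group 7 (HOXA7, HOXB7) was the only one filled throughout under the 80% rule, and under the other two rules groups 11 (HOXA11, HOXC11, HOXD11) and 12 (HOXC12, HOXD12) were filled as well. Depth bears on these states, because the nucleosomes of HOXD hold fewer reads. When the reads of every cluster were thinned to the flank level of HOXD in the same library, an alternative chosen after the data were seen, 0, 1, 5 and 4 members of HOXA, HOXB, HOXC and HOXD were empty in all libraries, the same numbers as before. Those filled in all libraries fell from 4 to 2 in HOXA, from 4 to 0 in HOXB and from 2 to 0 in HOXC. Empty windows in single libraries rose from 19 and 19 to 27 and 22 in the control and from 19 and 16 to 25 and 20 in the knockdown. The count of members empty in all 4 libraries did not change. Thinning can only remove called nucleosomes, so this count could rise but could not fall. HOXD was itself the reference level, and its number of empty windows was the same in every library. Whether its 4 empty members reflect its low depth was therefore not tested.

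HOXB7 and HOXC12 were filled in every library, and their E-boxes were always covered. In HOXB7 the nucleosome of the window held 18 and 23 reads in the control libraries and 18 and 25 in the knockdown libraries. In HOXC12 it held 23 and 21 reads in the control libraries and 19 and 27 in the knockdown libraries. Both groups overlapped in each gene.

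**Figure D3:**
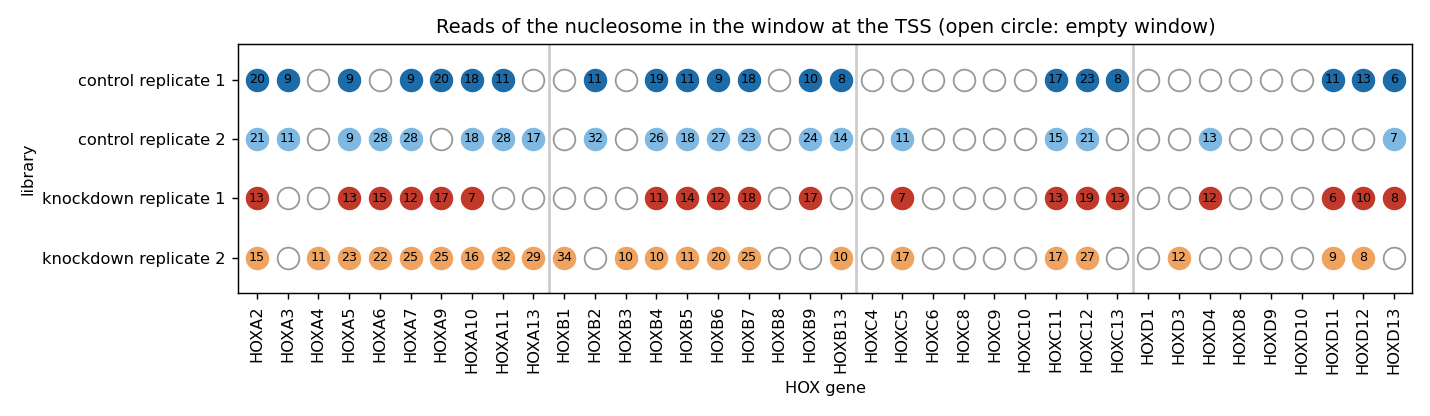
State of the TSS window (200 bp before to 50 bp after the TSS) for 38 of the 39 HOX genes (x axis) in the 4 libraries (y axis). A filled circle is a window with a nucleosome and gives its reads, and an open circle is an empty window. The 10 genes with 4 open circles are 5 of HOXC, 4 of HOXD and HOXB8.

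The nucleosomes on either side of the TSS, called −1 and +1 by their dyads, gave a graded measure of the same gap. The median distance between them over members was 234.0 bp in HOXA, 265.1 bp in HOXB, 338.5 bp in HOXC and 341.8 bp in HOXD, and 302.0 bp over all protein-coding promoters. The longest of HOXC were HOXC4, at 400.5 ± 112.6 bp (SD, n = 4), and HOXC10, a gene of the hindlimb and lumbar region, at 399.8 ± 18.8 bp. HOXC10 varied little between libraries, with 372 and 407 bp in the control and 406 and 414 bp in the knockdown. The longest of HOXD was HOXD10, at 483.8 ± 107.2 bp, with 589 and 384 bp in the control and 563 and 399 bp in the knockdown. Its longer values were those of the 2 shallower libraries. The longest of HOXA was HOXA4, at 350.0 ± 90.7 bp, with 396 and 395 bp in the control and 395 and 214 bp in the knockdown. The longest of HOXB was HOXB8, at 314.0 ± 12.2 bp, with 310 and 317 bp in the control and 329 and 300 bp in the knockdown. The shortest were HOXA3 (209.8 bp), HOXB6 (183.0 bp), HOXC11 (202.2 bp) and HOXD11 (216.0 bp). GC content gave no ordering of these distances, with Pearson's r of −0.094 across the 39 promoters.

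Reads whose dyads lay in the window, per kb and relative to the whole promoter, gave another view. This ratio was lowest in HOXC, at 0.427 ± 0.130 (SD, n = 4), and was 0.656 ± 0.134 in HOXA, 0.662 ± 0.080 in HOXB and 0.597 ± 0.118 in HOXD, against 0.676 ± 0.018 over all protein-coding promoters. In HOXC it was 0.369 and 0.285 in the control libraries and 0.588 and 0.466 in the knockdown libraries. The groups did not overlap in HOXC. The difference, knockdown minus control, was 0.20 in HOXC, 0.14 in HOXA, −0.11 in HOXB and 0.037 in HOXD, and −0.012 over all promoters. With 2 libraries a group the exact permutation test has 6 arrangements and its smallest p, two-sided, is 0.33, which HOXA, HOXB and HOXC all reached in spite of their opposite signs. None of these differences could pass 0.05.

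**Figure D4:**
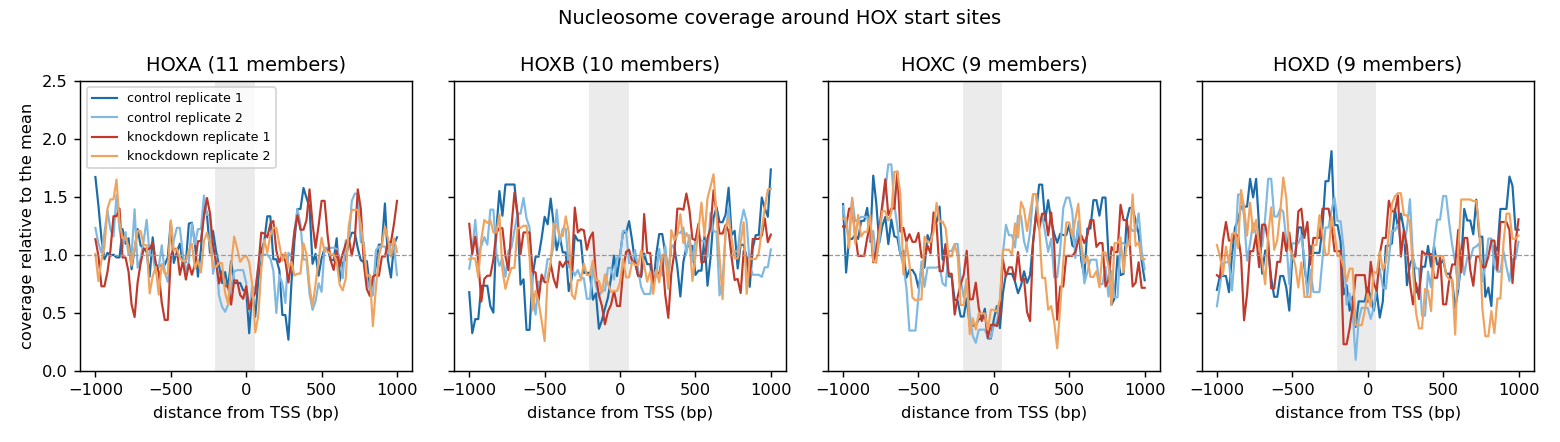
Coverage by called nucleosomes, summed over the members of each HOX cluster and divided by its mean over 1000 bp on either side (y axis), against distance from the TSS in bp (x axis). Lines are the 4 libraries and the grey area is the TSS window (200 bp before to 50 bp after). The lowest points within 300 bp of the TSS lay 40 to 160 bp upstream in HOXC and 80 to 160 bp upstream in HOXD in every library, and at varied places in HOXA and HOXB.

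Whether MYCN knockdown changed the nucleosome reads of HOX promoters was the main question of the comparison between groups. Reads summed over a promoter or a bin do not show a nucleosome that shifts within it. The reads of the 39 promoters were tested in 1 fit over all protein-coding promoters with edgeR's quasi-likelihood test. All 39 passed the filter of a mean of 10 reads. With Benjamini-Hochberg adjustment, 0 of 39 were called at 0.05, as were 0 of 20106 promoters (0% called). At an unadjusted p under 0.05 there were 0 of 39 HOX promoters, against 634 of 20106 (3.15%). DESeq2 called 0 promoters, and it gave 0 HOX promoters and 210 in all with an unadjusted p under 0.05. The median log2 change of the 39 was 0.016, with 20 above 0 and 19 below, and the median of all promoters was −6.8e-05.

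Both knockdown libraries were above both control libraries in RPKM in 2 of the 39 promoters, HOXB2 and HOXC9, against 11.9% of all tested promoters. They were below in 4, HOXA7, HOXB13, HOXC4 and HOXD12, against 19.1%.

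The log2 changes with the largest rise were those of HOXB2, HOXC9 and HOXB5. HOXB2, which acts in the hindbrain, had 0.451 and 0.451 RPKM in the control and 0.522 and 0.538 in the knockdown, a log2 change of 0.26 ± 0.14 (SE) with an unadjusted p of 0.065 and an adjusted p of 0.999 by edgeR. HOXC9, a gene of the thoracic region, had 0.399 and 0.357 RPKM in the control and 0.454 and 0.423 in the knockdown, a log2 change of 0.24 ± 0.14 (adjusted p = 0.999 by edgeR). HOXB5 had 0.510 and 0.438 RPKM in the control and 0.525 and 0.499 in the knockdown, a log2 change of 0.14 ± 0.14, and its groups overlapped.

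The log2 changes with the largest fall were those of HOXD12, HOXB13 and HOXC4. HOXD12, a gene of the distal limb, had 0.316 and 0.253 RPKM in the control and 0.183 and 0.241 in the knockdown, a log2 change of −0.36 ± 0.19 (SE, adjusted p = 0.999 by edgeR). The log2 ratio was −0.79 between the replicate 1 libraries and −0.069 between the replicate 2 libraries, so its size came mostly from the former. HOXB13, the prostate and tail-end gene of its cluster, had 0.582 and 0.555 RPKM in the control and 0.491 and 0.450 in the knockdown, a log2 change of −0.25 ± 0.14. HOXC4 had a log2 change of −0.19 ± 0.15, with the values given above. None of these 6 changes passed the test.

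**Figure D5:**
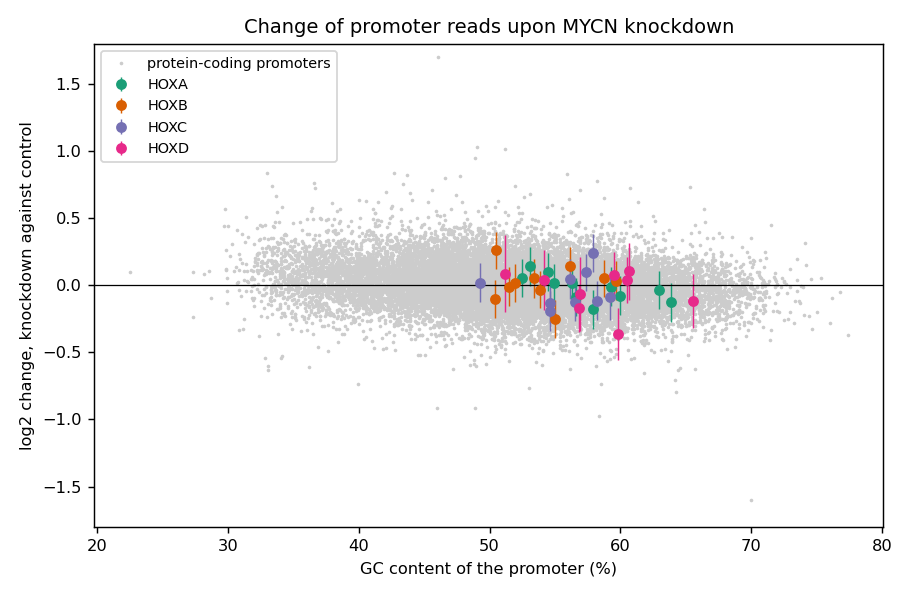
Log2 change of promoter reads upon MYCN knockdown (y axis, edgeR) against GC content of the promoter in percent (x axis) for all tested protein-coding promoters (grey) and the 39 HOX promoters, coloured by cluster with bars of 1 SE. The HOX points lie between −0.36 and 0.26, within the grey cloud and to the GC-rich side of its centre, and most bars cross 0.

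The clusters were also read in 10-kb bins. None of the 55 bins that overlap a HOX cluster was called with edgeR (0 of 284468 in all, 0% called), and 0 of 55 had an unadjusted p under 0.05, against 9391 of 284468 (3.3%). DESeq2 called 0 bins and had 0 HOX bins and 3766 in all at that limit. In 40 of 55 HOX bins the log2 change was below 0, against 49.8% of all bins. Its median was −0.047 in HOXA, −0.010 in HOXB, −0.085 in HOXC and −0.089 in HOXD. The GC content of these bins was 51.6% at the median, against 39.8% over all bins. Across all tested promoters, the log2 change fell with GC content (Pearson's r = −0.196 across 20088 promoters, which are not independent), and its part in the HOX bins was not tested.

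Measured against the flanks, the differences were small. Knockdown minus control was −0.026 in HOXA, 0.014 in HOXB, −0.006 in HOXC and −0.071 in HOXD. In HOXD, control replicate 1 (1.25) set this value, and without it the difference was 0.00096. Over the 4 clusters together, fuzziness was 34.3 and 35.8 bp in the control libraries and 34.3 and 35.7 bp in the knockdown libraries, a difference of −0.080 bp. Nucleosomes per kb were 4.19 and 4.41 in the control and 4.14 and 4.47 in the knockdown, a difference of 0.0019. Mean spacing was 207.0 and 207.1 bp in the control and 206.7 and 206.6 bp in the knockdown, a difference of −0.40 bp. Spacing was the only one of the 3 whose groups did not overlap, at the smallest p the design allows (0.33, exact permutation test, two-sided). It was −2.92 bp in HOXA and 0.75 bp in HOXB, and −0.14 bp when distances ran from 1 nucleosome length to 250 bp.

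Of the 15 HOX windows that were empty in both control libraries, 1 was filled in both knockdown libraries, against 444 of 8457 windows over all promoters (5.25%). Of the 16 that were filled in both control libraries, 2 were empty in both knockdown libraries, against 483 of 6246 (7.73%). The emptied windows were those of HOXA3, which held 9 and 11 reads in the control, and HOXB2, which held 11 and 32. The −1 dyad of HOXA3 lay 71 and 65 bp upstream of the TSS in the control and 187 and 200 bp upstream in the knockdown. That of HOXB2 lay 44 and 78 bp upstream in the control and 189 and 207 bp upstream in the knockdown. The +1 dyad of HOXA3 was nearer the TSS in the knockdown, at 57 and 50 bp downstream against 97 and 112 bp in the control. In HOXB2 the +1 dyad lay 129 and 158 bp downstream in the control and 137 and 139 bp in the knockdown. These counts are of 1 and 2 genes and lie near the background. When a nucleosome at least 50% inside also counted as filling a window, 0 members were emptied.

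HOX promoters with and without an E-box in the window were set side by side. The median log2 change was 0.029 in the 20 with the motif, with 9 below 0, and −0.0088 in the 19 without, with 10 below 0. The window was empty in all libraries in 4 of the 20 and in 6 of the 19. The difference between these sets was not tested.

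Genes that work with or on HOX genes were read from 5 lists, 65 genes in all, and 0 were called by edgeR (background 0%), with 1 at an unadjusted p under 0.05. Among 9 TALE cofactors, 7 log2 changes were below 0, from PKNOX2 at −0.29 ± 0.14 (SE, unadjusted p = 0.045, adjusted p = 0.999 by edgeR) to PKNOX1 at 0.17 ± 0.15. Among 22 Polycomb genes, 10 were below 0. RBBP7, a histone-binding subunit, was at −0.32 ± 0.26, and EED, the core subunit that reads H3K27 methylation, was at 0.26 ± 0.16. Among 12 Trithorax genes and H3K27 demethylases, 3 were below 0, from MEN1 (menin) at −0.39 ± 0.22 to DPY30, a subunit shared by the H3K4 methyltransferases, at 0.27 ± 0.14. The list of CTCF and cohesin, which shape loops at HOX boundaries, held 9 genes and also took in MAZ, a gene of neither. Of the 9, 5 were below 0, from CTCF at −0.19 ± 0.15 to RAD21 at 0.26 ± 0.25. Among 13 upstream regulators and cluster neighbours, 8 were below 0, from CDX4 at −0.23 ± 0.19 to AFF1 at 0.25 ± 0.18. Over all promoters, 10056 of 20106 were below 0.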

How the data were processed

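MNase-seq gave nucleosome maps of 4 BE(2)C libraries, which were grouped by the sample titles. The authors trimmed reads with Trim Galore 0.4.4, mapped them to hg19 with Bowtie2 2.2.4, kept proper pairs of mapping quality above 10, removed PCR duplicates with Samtools and called nucleosomes per library with Genetrack. Each deposited count is the whole number of midpoints in a called nucleosome of fixed length, with a minimum of 6. The highest count was 1764 in all 4 libraries although their totals differ, and whether counts are capped there was not tested. The deposited fuzziness score is the SD in bp of these midpoints. The paper speaks of a normalized read count, and the values were taken as unscaled, since they are whole numbers with unequal totals. Sums therefore hold only reads in called nucleosomes, which loses more reads where depth is low, and the totals are not library depths. Intervals for counting error were not given.

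TSSs were those of the canonical transcript in GENCODE on GRCh37. Promoters and 10-kb bins with a mean of at least 10 reads were tested with edgeR 4.0.16 in R 4.3.3 (quasi-likelihood, TMM, group only, Benjamini-Hochberg), checked on simulated data. DESeq2 1.42.0 was an alternative. Values per library were compared by exact permutation tests. Window shares over all genes used 20079 promoters with reads within 1000 bp of the TSS in all libraries. Spacing was the mean of dyad distances of 100 to 300 bp. Named were, per cluster, the highest and lowest promoter and the longest and shortest −1 to +1 distance, the 3 largest rises and falls, windows that switched, members with CACGTG, and the extremes of each gene list. The members and lists were chosen with earlier results of these data known. Other settings were flank length, whole-library scaling, overlap rules, TSS choice, read minimum, equal depth, replicate block and leaving out each library. For 1 member that this rule names, and for some upstream sequences, the result is not reported here.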

Additional observations from a re-analysis of the deposited data

How the results depend on the processing

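Of 112 values under other settings, over 17 results, 93 kept their direction or stayed within the spread of the libraries, or within 1.5 times for counts. A value within that spread could still change sign. Without each library in turn, the fuzziness difference ran from −0.84 to 0.68 bp and that of nucleosomes per kb from −0.16 to 0.17. The number of HOX promoters and of HOX bins called was 0 under RLE size factors, DESeq2, no filter, the replicate block and without each library, and for promoters also with the most upstream TSS. The levels relative to flanks depended on the reference. With flanks of 200 kb they were 1.10 in HOXA, 0.9299 in HOXC and 1.25 in HOXD. Against the whole-library mean they were 1.40 in HOXA, 1.42 in HOXB, 1.34 in HOXC and 0.642 in HOXD, and the HOXC difference was −0.061. Without each library in turn, the levels were 1.14 to 1.18, 1.05 to 1.07, 0.956 to 0.974 and 1.11 to 1.16. The spacing difference was −0.14 bp over distances from 1 nucleosome length to 250 bp and −0.26 bp with a minimum of 12 reads. Members empty in all libraries numbered 5 when a nucleosome at 50% inside counted and 5 when any dyad counted, and 10 to 14 without each library. Emptied windows numbered 0 under the 50% rule. Gaps shared by all libraries numbered 12 at 200 bp, 0 at 500 bp, 8 at equal depth and 4 to 7 without each library (7 without knockdown replicate 2).

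With the replicate number as a block, edgeR called 88 of 284468 bins and 0 HOX bins. In that fit 3 HOX promoters, HOXB2, HOXB13 and HOXD12, and 6 HOX bins had an unadjusted p under 0.05. Within pairs of the same number, 6 windows were filled and 4.5 emptied on average. The matching shares over all promoters, bins and windows under the block are not given here. These counts therefore have no background and are not read as a result about HOX genes. The labels do not say that a number marks a shared batch. The correlation of deviations from the group mean between libraries of the same number was 0.294 over promoters and 0.468 over bins, with 2 pairs.

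With 2 libraries a group, the exact permutation test of a single value cannot go below p = 0.33. HOXD, with a median of 9 reads per nucleosome in both replicate 1 libraries, lies close to the minimum of 6, so an empty window there can mean too few reads. The causes of these movements were not tested.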
